A study of Mus musculus with 12 samples.

Results

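The Zfp genes described here are the mouse genes whose symbol is Zfp followed by a number, on an autosome and shorter than 400000 bases, without Zfp704. They were chosen by name and not by any measured value, though with earlier results of these data known. They made up 355 of the 27095 genes counted. Of 363 symbols of that form, 7 were on the X chromosome and 1 autosomal gene was left out by the rule. The symbol stands for zinc finger protein, so the group holds all kinds of zinc finger genes and not 1 gene family by descent. Acetylation of histone H3 at lysine 14 (H3K14ac) was mapped by ChIP-seq, that is, by sequencing the DNA an antibody pulls down with chromatin. The cells were neural stem and progenitor cells grown from cortices plus ganglionic eminences of mouse embryos at day 14.5 of gestation. They were proliferating as neurospheres, or differentiating after plating on laminin with cortical neuron medium. There were 6 wild-type (WT) H3K14ac libraries, 3 per stage, and at each stage 1 input library, 1 library made with a non-specific antibody (IgG) and 1 H3K14ac library from Hbo1 null cells. The input libraries are labelled WT and replicate 1, and each served as the input of all 3 WT libraries of its stage. Hbo1, also named Kat7, encodes a histone acetyltransferase, and the series describes the deleted cells as lacking H3K14ac. The labels give no allele, driver or deletion method for the null cells and no genotype for the IgG libraries. The antibody label of the input and IgG libraries also names H3K14ac, and they are taken as controls from their titles. The series came from 4 WT foetuses, but what the replicate numbers refer to is not labelled. The p-values below measure the spread between libraries, part of which may be technical.

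A classical zinc finger of the C2H2 type is a short fold held by a zinc ion that reads a few bases of DNA, and many Zfp proteins carry long arrays of them. The largest group adds a KRAB domain, which binds the corepressor TRIM28 (KAP1) and through it the H3K9 methyltransferase SETDB1, and many of these proteins silence transposable elements. KRAB zinc finger genes have multiplied by tandem duplication, lie in clusters, and in many cells carry H3K9me3 over their own 3' exons. Other Zfp genes stand alone and encode conserved transcription factors, RNA-binding proteins or ubiquitin ligases. H3K14ac is a mark of active promoters and enhancers.

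Of the 355 genes, 173 lay in 17 clusters, defined as runs of at least 5 Zfp gene starts within 1 Mb on 1 chromosome, and 182 were single genes. Genes with names of other forms inside the same arrays were not members. The large clusters were the chromosome 17 cluster from Zfp160 to Zfp40 (21 genes, chr17:21008941-23193284), the chromosome 13 cluster from Zfp712 to Zfp273 (19 genes, chr13:67038594-67827000), the chromosome 7 clusters from Zfp84 to Zfp146 (15 genes, chr7:29768552-30169775) and from Zfp180 to Zfp526 (14 genes, chr7:24081877-25227876), and the distal chromosome 4 cluster from Zfp980 to Zfp933 (13 genes, chr4:145670697-147849126). All coordinates are of GRCm38 (mm10). A RefSeq promoter of 300 bases, from 250 before to 50 after the transcription start site (TSS), was at hand for 297 of the 355 genes. By that sequence 22 genes, 9 of them in clusters, had another gene with at least 95% identity over at least 90% of the promoter. Reads of such copies can be split between them or lost, because the treatment of reads that align to several places is not given in the sources used here. Values of these 22 genes are uncertain for that reason, and the 58 genes without a promoter entry could not be checked. Only the promoter was compared and not the rest of the gene, so reads of the remaining genes may also be shared with copies. Most of the compared sequence lies before the TSS, whereas reads were counted from the TSS into the gene. The flag is therefore an indirect guide to shared reads.

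Below, 5 promoters are shown, of single genes and of clustered ones. Zfp143, Zfp827 and Zfp644 are single genes whose windows were far above input, and Zfp979 and Zfp600 are members of the distal chromosome 4 cluster whose promoters were 98.3% identical. Each sequence is from RefSeq (GRCm38.p6), written 5' to 3' on the strand of the gene, and capitals mark the dinucleotide CG. The regions are chr7:110061452-110061751 (plus strand) for Zfp143, chr8:79028187-79028486 (plus) for Zfp827, chr5:106696781-106697080 (minus) for Zfp644, chr4:147642459-147642758 (minus) for Zfp979 and chr4:146156577-146156876 (plus) for Zfp600.
Zfp143: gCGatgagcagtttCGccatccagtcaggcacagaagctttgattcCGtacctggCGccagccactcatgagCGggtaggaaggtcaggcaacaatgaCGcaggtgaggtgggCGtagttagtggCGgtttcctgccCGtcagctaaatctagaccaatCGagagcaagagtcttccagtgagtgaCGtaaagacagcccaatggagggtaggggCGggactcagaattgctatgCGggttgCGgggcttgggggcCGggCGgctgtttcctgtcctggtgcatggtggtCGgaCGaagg
Zfp827: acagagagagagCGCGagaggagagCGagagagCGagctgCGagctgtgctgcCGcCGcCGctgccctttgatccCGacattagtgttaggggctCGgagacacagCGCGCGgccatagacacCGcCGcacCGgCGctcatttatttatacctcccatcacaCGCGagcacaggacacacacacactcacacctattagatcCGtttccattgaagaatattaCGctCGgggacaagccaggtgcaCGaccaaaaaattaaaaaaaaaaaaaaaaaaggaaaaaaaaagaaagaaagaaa
Zfp644: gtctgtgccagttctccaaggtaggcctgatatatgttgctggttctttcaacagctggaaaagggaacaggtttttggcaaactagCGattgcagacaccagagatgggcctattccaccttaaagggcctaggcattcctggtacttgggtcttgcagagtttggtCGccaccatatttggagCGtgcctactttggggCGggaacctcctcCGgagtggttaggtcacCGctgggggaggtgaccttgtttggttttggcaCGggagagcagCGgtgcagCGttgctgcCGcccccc
Zfp979: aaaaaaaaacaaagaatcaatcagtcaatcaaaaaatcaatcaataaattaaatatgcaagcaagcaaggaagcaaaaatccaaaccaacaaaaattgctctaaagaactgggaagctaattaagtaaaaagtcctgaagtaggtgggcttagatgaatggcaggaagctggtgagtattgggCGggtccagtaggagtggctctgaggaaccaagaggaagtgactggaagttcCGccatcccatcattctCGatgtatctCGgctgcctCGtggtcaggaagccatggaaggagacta
Zfp600: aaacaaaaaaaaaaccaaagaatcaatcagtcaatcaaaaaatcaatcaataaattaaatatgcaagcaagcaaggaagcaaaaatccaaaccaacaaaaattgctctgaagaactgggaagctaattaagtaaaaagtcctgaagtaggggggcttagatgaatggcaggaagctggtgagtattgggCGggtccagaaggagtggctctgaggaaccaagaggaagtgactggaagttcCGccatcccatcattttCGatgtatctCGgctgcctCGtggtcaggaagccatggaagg
The Zfp143 promoter held 18 CG dinucleotides, that of Zfp827 held 23 and that of Zfp644 held 10, against 5 each in Zfp979 and Zfp600. The ratio of observed to expected CG was 0.735 for Zfp143, 1.20 for Zfp827, 0.439 for Zfp644, 0.382 for Zfp979 and 0.377 for Zfp600. The median of that ratio was 0.671 over the 146 single genes with a promoter entry, 0.604 over the 151 clustered ones, and 0.568 over all 18458 promoters of the counted genes. Clusters varied: the median was 0.377 in the distal chromosome 4 cluster, to which both clustered examples belong, and 0.715 in the chromosome 6 cluster from Zfp786 to Zfp775.

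The promoters were also searched on both strands for 8 short motifs. The first is the core of the element bound by the transcription factor ZNF143 (Staf), whose mouse gene is Zfp143, searched as ACTACA, any 2 bases and TCCCA. This Staf motif was in 47 of the 297 Zfp promoters (15.8%), against 409 of all 18458 (2.22%). Among clustered genes it was in 38 of 151 (25.2%), and among single genes in 9 of 146 (6.16%). It was in 15 of 17 promoters of the chromosome 13 cluster, in 10 of 14 of the chromosome 7 cluster from Zfp84 to Zfp146 and in 6 of 11 of that from Zfp180 to Zfp526. The chromosome 17 cluster from Zfp160 to Zfp40 had it in 0 of 19. The following stretches show the motif in capitals in 1 gene of each of the 3 clusters that were rich in it, in a stretch of the promoter on the gene's strand from RefSeq (GRCm38.p6). They are chr13:67306450-67306522 (minus) for Zfp457, chr7:30090544-30090616 (minus) for Zfp566 and chr7:24112234-24112306 (plus) for Zfp112.
Zfp457: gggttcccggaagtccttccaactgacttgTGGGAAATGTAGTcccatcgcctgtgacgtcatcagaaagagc
Zfp566: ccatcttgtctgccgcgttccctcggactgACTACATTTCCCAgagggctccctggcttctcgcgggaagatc
Zfp112: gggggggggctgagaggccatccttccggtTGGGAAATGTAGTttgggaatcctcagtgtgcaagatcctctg
In Zfp457 and Zfp112 the motif reads as its reverse complement on the gene's strand, and in Zfp566 it reads as written. Over the 47 genes there were 51 matches, 39 of them on the opposite strand, with a median first base 57 bases before the TSS. The form ACTACATTTCCCA made up 29 of the 51 matches. A match describes the letters of the promoter sequence and is not a binding site. CCAAT was in 49.2% of Zfp promoters against 39.2% of all, and in 10 of 10 promoters of the chromosome 17 cluster from Zfp871 to Zfp414. The motif GGGCGG was in 44.1% against 46.0%, CACGTG in 8.42% against 8.04%, TATAAA in 6.06% against 13.1%, TGACGTCA in 3.03% against 2.34%, the NRF1 motif in 3.37% against 1.29% and the YY1 motif in 1.01% against 0.959%.

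Reads were counted by the authors in a window of 1000 bases at the TSS (TSS window) and over the gene body, which contains the window. The window was taken to run from the TSS into the gene. It thus shares only the last 50 bases of the 300-base promoters above. Gene body totals were 3992697 to 7611239 in the proliferating WT libraries, 12549913 to 17074249 in the differentiating ones, 11871306 and 12689734 in input, 2526252 and 2771713 in IgG, and only 64071 and 320601 in the null libraries. A Zfp window held a median of 8 to 22 counts in the WT libraries, 14 and 15 in input, 3 in IgG and 0 in both null libraries. TSS windows took 4.56% to 4.90% of gene body counts in proliferating WT libraries, 3.24% to 3.68% in differentiating ones, 3.23% and 3.36% in input and 2.90% and 3.34% in IgG. Differentiating WT libraries were thus near input in the share of counts at start sites. Of the 10 neural stem and progenitor markers listed for a check of the cells, 9 had windows above input, whereas 0 of the 10 tested microglia, endothelial and mesenchymal markers did. Of the oligodendrocyte markers 1 of 4, Olig2, was above input, and of the neuron markers the 1 that could be tested, Map2. Over all windows tested the share above input was 11.6%, so 0 of 10 lies near that share and does not tell whether such cells were present. The Kat7 gene body had 4 and 11 counts in the null libraries, or 62.4 (95% interval 17.01 to 160) and 34.3 (17.1 to 61.4) CPM (counts per 1000000 gene body counts of the library), against 26.9 to 37.9 in WT and 44.5 and 47.2 in input, so these counts do not check the deletion. Counts from Y-linked genes were 120 and 133 CPM in the IgG libraries and 120 in differentiating WT replicate 3, against 3.20 to 22.9 in the other WT and input libraries. In the proliferating and differentiating null libraries they were 31.2 and 78.0 CPM, at the low totals given above. Levels below are in CPM.

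The first comparison asked which Zfp start sites carried more H3K14ac signal than input. In proliferating cells Zfp windows were above input as a group, and the excess was larger for single genes than for clustered ones. Summed over the 182 single genes, the windows held 1.91, 2.09 and 2.05 times the share of input in the 3 proliferating WT libraries. Summed over the 173 clustered genes they held 1.39, 1.47 and 1.505 times, and over all genes 1.36, 1.46 and 1.44 times. The single genes were thus above both, and the clustered genes were within 0.06 on the log2 scale of all genes in each library. That closeness rested on the distal chromosome 4 cluster. Without it, left out after its values were seen, the clustered genes had a mean log2 over input of 0.67 ± 0.06 (SD, n = 3), against 0.51 ± 0.06 for all genes. With clusters defined by neighbouring starts at most 250 kb apart, clustered genes had 0.63 ± 0.06 and single genes 0.87 ± 0.06, closer together than the 0.54 ± 0.06 and 1.01 ± 0.07 under the rule used here. In the differentiating WT libraries the ratios were 1.38, 1.08 and 1.16 for single genes, 1.19, 1.04 and 1.03 for clustered genes and 1.14, 1.00 and 1.06 for all genes. The log2 difference between single and clustered genes was 0.46, 0.51 and 0.44 at the proliferating stage and 0.22, 0.05 and 0.17 at the differentiating stage, so the stages did not overlap. It was 0.10 and -0.01 in IgG. In the proliferating null library it was 1.76, from 28 single-gene and 9 clustered-gene counts, and 9 of the 28 were of Zfp521. In the differentiating null library it was 0.11, from 65 and 64 counts, and 13 of the 65 were of Zfp521. These sums are descriptions of each library over genes, and no test was made across genes. Fewer cells with the mark and less of the mark per cell cannot be told apart in such libraries. In addition, of the 297 windows that could be placed from a promoter entry, 37 overlapped another RefSeq gene, at its start or elsewhere. Reads in the overlap cannot be assigned to either gene.

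**Figure D1:**
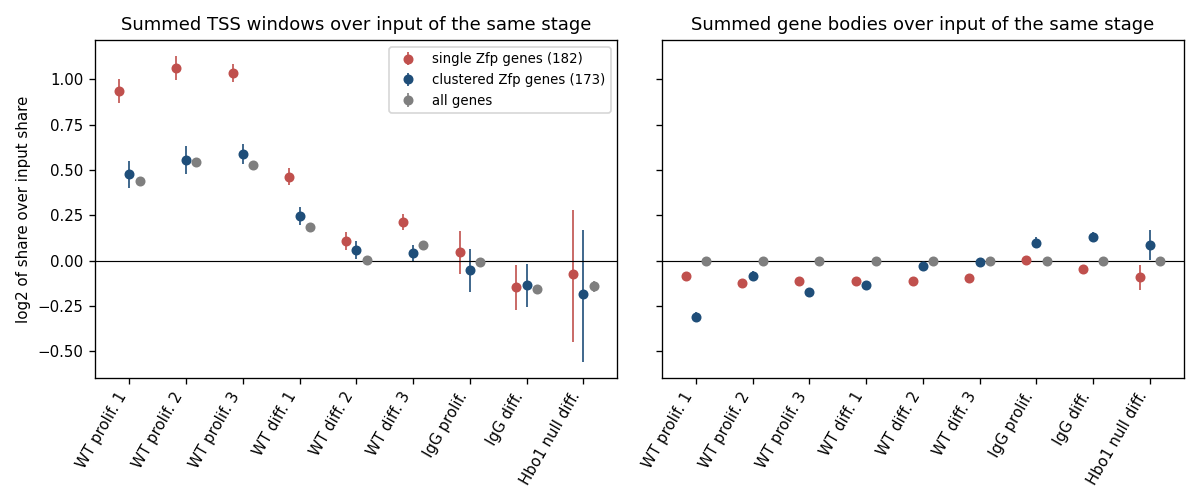
Summed counts of single Zfp genes (red), clustered Zfp genes (blue) and all genes (grey) in TSS windows (left) and gene bodies (right), as the log2 of the share of gene body counts over that of input of the same stage, in each library. Bars are 95% Poisson intervals of the summed count, which cover counting error only; the proliferating null library, with 37 Zfp window counts, is not drawn. The single genes sit at 0.94 to 1.06 in proliferating WT windows, above the clustered genes at 0.48 to 0.59.

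Gene by gene, signal was tested with edgeR's quasi-likelihood test on the windows with a mean count of at least 10, with Benjamini-Hochberg adjustment over all genes tested and a threshold of 0.05. Over both stages 61 of 332 tested Zfp windows were above input (18.4%) and 0 were below. Of all 21557 windows tested, 11.6% were above and 0.881% below. The median log2 fold change was 0.50 over Zfp windows and 0.25 over all windows. Single genes made up 45 of the 61, of 169 tested (26.6%), with a median of 0.60. Clustered genes made up 16 of 163 (9.82%), with a median of 0.36. Of the 61 genes, 3 had a near-identical promoter copy, Zfp943, Zfp994 and Zfp959, and 11 had no promoter entry and could not be checked for one. With TMM scaling the count was 29 above and 5 below. It was 33 without differentiating replicate 1, 34 without proliferating replicate 3, 0 without the proliferating input and 93 (92 above, 1 below) without the differentiating input, so it rested on the proliferating input.

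The windows with the smallest p belonged to single genes. None of the called windows without overlap had a mean count of 30, the minimum of the rule for named genes, so the 3 with the smallest p are given first. Zfp827, which has been tied to telomere chromatin, had 3.08, 4.26 and 5.52 CPM in proliferating and 2.47, 1.80 and 2.40 CPM in differentiating cells of WT, against 0.59 and 0.79 CPM in input. All 6 WT libraries were above both inputs, and the log2 fold change was 2.15 (SE 0.44, edgeR adjusted p = 0.00034). Zfp143, the transcription factor named above, had 5.94, 5.51 and 6.18 CPM in proliferating and 3.51, 1.49 and 2.52 CPM in differentiating libraries, against 0.84 and 1.10 CPM in input. Its groups did not overlap either, with a log2 fold change of 1.95 (SE 0.43, edgeR adjusted p = 0.000902). Zfp618 had few counts, with 0.88, 2.50 and 1.58 CPM, then 1.04, 1.17 and 1.29 CPM, against 0.25 and 0.32 CPM in input. Its log2 fold change was 2.22 (SE 0.50, edgeR adjusted p = 0.00104).

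Genes known from the nervous system or from chromatin were among those above input. Zfp335, a nuclear factor needed in neural progenitors, had 5.50, 4.51 and 5.65 CPM in proliferating and 3.66, 1.72 and 2.69 CPM in differentiating libraries, against 1.26 and 1.02 CPM in input (log2 1.73, SE 0.42, edgeR adjusted p = 0.00226). Each WT library lay above both inputs; the Zfp335 window also overlaps the antisense gene Zfp335os, whose reads cannot be told apart. Zfp207, a spindle and kinetochore protein, had a log2 fold change of 1.80. Zfp91, a ubiquitin ligase of the NF-kappaB pathway, had 1.61, and its window overlaps the gene Lpxn. Zfp462, a neurodevelopmental chromatin factor, had 1.38, and Zfp292, a large transcription factor tied to neurodevelopment, had 1.35. Zfp281, a regulator of pluripotent cells, had 1.35, and Zfp148, a GC-box factor, had 1.27. Zfp451, a SUMO ligase, had 1.15. Zfp521, which promotes neural identity, had 1.09 over the WT libraries (edgeR adjusted p = 0.0377). With TMM scaling Zfp462, Zfp451 and Zfp521 were no longer called. Among genes chosen after their values were seen, Zfp326, a factor of mRNA elongation and splicing, had 1.88, Zfp395 had 1.77, Zfp62 had 1.67, Zfp617 had 1.67 and Zfp644, a partner of the H3K9 methyltransferases G9a and GLP, had 1.602.

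Other genes with a known role did not pass. Zfp42 (Rex1), a marker of pluripotent cells, was near input, with 0.88, 2.00 and 0.92 CPM in proliferating and 1.04, 1.56 and 0.82 CPM in differentiating libraries against 0.93 and 1.10 CPM in input. Zfp57, which keeps imprints methylated, had a log2 fold change of -0.65 (edgeR adjusted p = 0.241). Zfp36 (tristetraprolin), which destabilises mRNAs, had 0.27, Zfp24, a factor of myelination, had 0.85, and Zfp488, an oligodendrocyte factor, had 0.12. The KRAB genes Zfp568, a repressor of a placental Igf2 promoter, and Zfp809, a silencer of proviruses, had 0.65 and 0.26. Zfp598, a ribosome quality control ligase, had 0.86, and Zfp106, an RNA-binding protein, had 0.18. Zfp423, a factor of cerebellar and adipose development, had 1.05 with an edgeR adjusted p of 0.051. The Zfp217 window had too few counts to be tested.

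By cluster, windows above input ranged from 3 of 6 in the chromosome 8 cluster from Zfp930 to Zfp866 to 0 in 6 clusters, among them the chromosome 13 cluster (0 of 19) and the distal chromosome 4 cluster (0 of 11). Over all windows 11.6% were above input, so a count of 0 in clusters of this size lies near that share. The chromosome 8 cluster had a median log2 of 0.92, with Zfp869 at 1.59, Zfp868 at 1.19 and Zfp866 at 1.06. The chromosome 6 cluster from Zfp786 to Zfp775 had a median of 0.75, with Zfp746 at 1.26 and Zfp467 at 1.18 called. The chromosome 17 cluster from Zfp160 to Zfp40 had a median of 0.69 with 3 of 21 called, Zfp943, Zfp995 and Zfp994, of which Zfp943 and Zfp994 have near-identical promoter copies and are uncertain. The chromosome 13 cluster had a median of 0.05. The chromosome 4 cluster had the lowest median of the 17, -0.29.

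The promoter sequences were set beside the signal as a description over genes that share the same libraries. Most of each promoter lies before the TSS and outside the window in which signal was counted. Among promoters with the Staf motif 1 of 46 windows was above input, Zfp146, against 49 of 229 without it. For all genes with the motif the count was 51 of 387 (13.2%), near the background of 11.6%. Within clusters the counts were 1 of 38 with the motif and 15 of 103 without, and among single genes 0 of 8 and 34 of 126. Summed windows with the motif stood at 1.36, 1.23 and 1.40 times input in proliferating WT libraries, and those without it at 1.70, 1.90 and 1.83 times. The Spearman correlation between the CG ratio and the log2 over input within proliferating cells was 0.294 over 275 Zfp genes, and 0.458 over 15874 genes. By tertile of the CG ratio, 27 of 96 tested windows of the highest tertile were above input, 12 of 94 of the middle and 11 of 85 of the lowest.

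Each stage was also set against its own input. In proliferating cells 90 of 332 Zfp windows were above the single input and 1, Zfp750, was below, against 17.7% above and 0.524% below over all windows. The single input is assumed in this fit to vary like the WT libraries. Single genes gave 63 of 169 above and the 1 below, with a median log2 of 0.99, and clustered genes 27 of 163, with a median of 0.56. With TMM scaling the split was 35 above and 5 below, and without proliferating replicate 3 it was 57 above and 1 below. In differentiating cells edgeR's quasi-likelihood test called 0 of 332 in either direction, against 0.0835% above and 0.00464% below (0.0881% in all) over all windows. At an unadjusted p under 0.05 there were 31 above and 3 below, and DESeq2 was not run on that contrast. The median log2 there was 0.22 for Zfp windows and 0.09 for all. The difference between the stages itself, the change of WT beyond that of input, called 0 Zfp windows in edgeR's quasi-likelihood test, with 2 higher and 47 lower at an unadjusted p under 0.05. Over all windows that test called 0.0% higher and 0.0278% lower. The median of that difference was -0.62 over Zfp windows and -0.37 over all. The genes above input in 1 stage alone are therefore not shown to differ between stages.

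Zfp143 had a log2 over input of 2.79 (SE 0.52, edgeR adjusted p = 1.59e-05) in proliferating cells and 1.17 (edgeR adjusted p = 0.371) in differentiating ones. Zfp827 had 2.89 and 1.49, Zfp335 had 2.05 and 1.38, and Zfp207 had 2.10 and 1.44. Zfp292 had 2.21 and 0.58, Zfp423 had 2.02 and 0.26, and Zfp521 had 1.96 and 0.35. Of these 7 genes each was called in proliferating cells and none in differentiating ones.

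**Figure D2:**
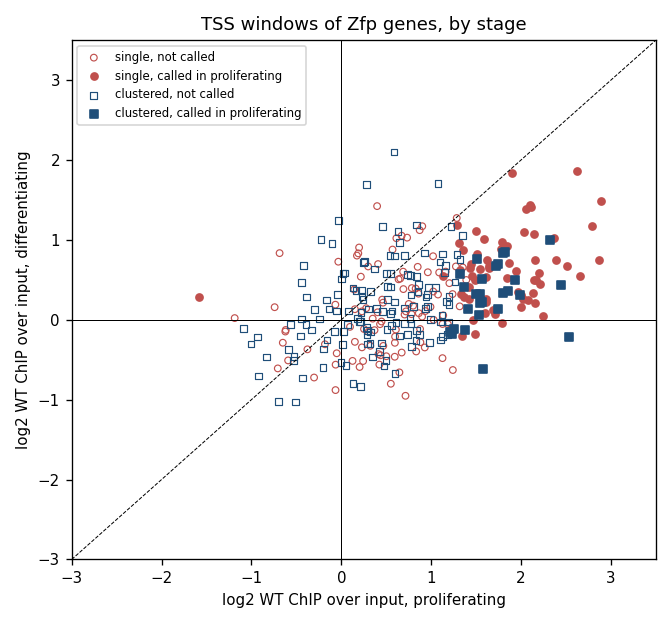
TSS windows of 332 Zfp genes, with log2 of WT ChIP over input in proliferating cells (x axis) against differentiating cells (y axis), from the fit with 4 group means. Circles are single genes and squares clustered genes, filled where edgeR called them in proliferating cells; the dashed line marks equal values. Of the 91 filled points, 90 lie on the right and below the dashed line, and the 1 filled point on the left is Zfp750. Filled points were picked by their x value, which favours a place below the line, so that place shows no difference between stages.

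The second comparison asked how Zfp windows differed between differentiating and proliferating cells in the 6 WT libraries, scaled by TMM so that the median change over all windows was 0.03. Of 321 tested Zfp windows 6 were higher in differentiating cells and 10 lower, against 2.04% higher and 4.42% lower (6.45% in all) over all 19477 windows. These are 1.87% and 3.12%, near the background. The single genes gave 0 higher and 9 lower of 164, with a median log2 of -0.22, and the clustered genes 6 higher and 1 lower of 157, with a median of 0.00. The scaling matters for this split. With gene body totals in place of TMM the median of all windows moved to -0.47, and the Zfp calls became 1 higher, Zfp981, and 96 lower. Without proliferating replicate 3 the count was 0 higher and 4 lower. It was 4 and 5 without proliferating replicate 2, 3 and 7 without differentiating replicate 2, and 5 and 4 without differentiating replicate 3. A test limited to windows with a mean count of at least 30, which left 8 Zfp windows among 270, gave 4 higher and 0 lower, and Zfp644 was the 1 of the 10 falls that it included.

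Among the windows that fell, Zfp644 was the 1 that passed the rule for named genes, a mean count of at least 30 without overlap. It had 5.94, 8.26 and 6.04 CPM in proliferating and 2.63, 1.25 and 2.11 CPM in differentiating libraries, with 1.26 and 1.18 CPM in input. Every proliferating library was above every differentiating one, and the log2 change was -1.22 (SE 0.27, edgeR adjusted p = 0.00132). In the test limited to the 270 windows with higher counts, the change of Zfp644 was -0.55 and was not called (edgeR adjusted p = 0.0887). The other 9 had lower counts and were named after their values were seen. Zfp367, a transcription factor, went from 3.52, 5.01 and 4.86 CPM to 1.67, 1.17 and 0.64 CPM (log2 -1.50, SE 0.29, edgeR adjusted p = 0.000234). Zfp318, a nuclear factor that acts on immunoglobulin D transcripts in B cells, went from 4.62, 4.51 and 3.68 CPM to 1.27, 1.25 and 1.29 CPM (log2 -1.20). In both the groups were apart, and differentiating values lay near the input values of 0.79 to 1.6 CPM. Zfp428, in the chromosome 7 cluster from Zfp180 to Zfp526, was the 1 clustered gene among them, at -1.22. Zfp619 had -1.02, Zfp800 -0.998, Zfp184 -0.98, Zfp622, a ribosome biogenesis factor, -0.98, Zfp451 -0.91 and Zfp655 -0.89. The Zfp655 window also overlaps the gene Gm6287, whose reads cannot be told apart. All 10 fell by 1.40 to 1.99 with gene body totals, and each stayed called.

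Of the 6 windows that were higher in differentiating cells, 5 lay in the distal chromosome 4 cluster, and the other was Zfp977 of the chromosome 7 cluster from Zfp141 to Zfp819. In the chromosome 4 cluster 5 of 11 tested windows were called and all 11 had a positive change, with a median log2 of 0.81. Zfp981 had 1.10, 3.26 and 2.10 CPM in proliferating and 3.98, 3.36 and 3.98 CPM in differentiating libraries, against 2.78 and 3.94 CPM in input and 4.35 and 5.05 CPM in IgG. The WT groups did not overlap (log2 1.34, SE 0.30, edgeR adjusted p = 0.00182). Zfp991 had 3.08, 3.51 and 2.89 CPM, then 5.18, 4.22 and 3.98 CPM, against 5.56 and 6.15 CPM in input (log2 1.01, SE 0.29, edgeR adjusted p = 0.0173). Its WT libraries were apart by stage and all below both inputs. Zfp979, whose promoter is printed above, had 5.50, 5.26 and 3.02 CPM, then 5.66, 6.49 and 4.68 CPM, against 6.66 and 7.25 CPM in input (log2 0.85, SE 0.28, edgeR adjusted p = 0.0429). On the CPM scale its groups overlapped, and only after TMM scaling were they apart. Its promoter is nearly the same as those of Zfp600 and Rex2, so its reads may be shared with theirs. Zfp985 had 1.24 with overlapping groups, Zfp534, which also has a near-identical promoter copy, had 1.17 and Zfp977 had 1.38; these 3 were named after their values were seen. With gene body totals the log2 changes were 0.34 for Zfp979, 0.51 for Zfp991, 0.67 for Zfp534, 0.72 for Zfp985, 0.84 for Zfp981 and 0.88 for Zfp977, and edgeR's adjusted p stayed under 0.05 for Zfp981 alone, at 0.049.

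**Figure D3:**
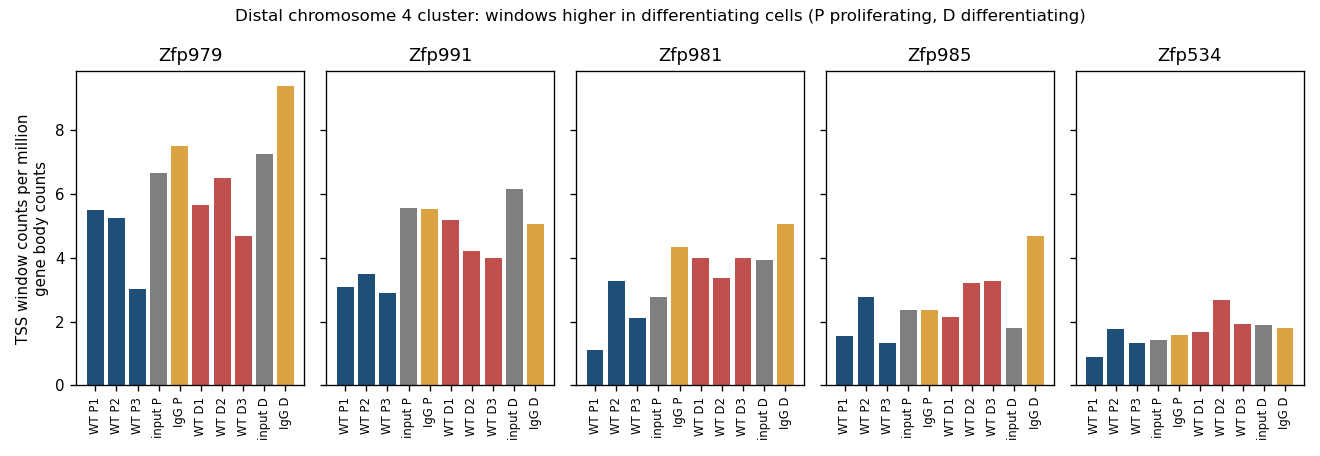
TSS window levels in CPM of 5 genes of the distal chromosome 4 cluster in 10 libraries, for proliferating (P) and differentiating (D) cells, as 1 bar per library. Blue and red bars are WT ChIP, grey input and gold IgG. For Zfp979 and Zfp991 the input bars, at 5.56 to 7.25, stand above every WT bar, and for Zfp981 the differentiating WT bars at 3.36 to 3.98 stand near the differentiating input at 3.94.

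The control libraries moved with this cluster. Its summed windows held 1.88, 2.20 and 1.78 CPM per gene at the proliferating stage and 2.48, 2.70 and 2.36 at the differentiating stage in WT, against 2.79 and 2.99 in input and 2.89 and 3.14 in IgG. All 6 WT libraries were below input of their stage. Over all genes input held 1.24 and 1.19 CPM per gene, so these start sites gave many counts in input. The summed gene bodies were 1.40 times as high in differentiating as in proliferating WT libraries. The same ratio was 1.21 in input, 1.20 in IgG and 1.48 in the null libraries. The part of this shift in the change of the windows was not tested. For the windows the ratio was 1.29 in WT, 1.07 in input, 1.08 in IgG and 0.799 in the null libraries, the last from 2 and 8 counts.

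No Zfp gene body passed the test between stages. By edgeR's quasi-likelihood test 0 of 355 were higher and 0 lower, against 0.0366% and 0.126% (0.163% in either direction) over all 24564 genes. At an unadjusted p under 0.05 there were 60 higher and 6 lower, and DESeq2 called 5 higher and 0 lower. The median log2 change was 0.12, against -0.00 over all genes. The 3 smallest p, none of which passed, were Zfp993, Zfp981 and Zfp985 of the chromosome 4 cluster. Zfp993 had 65.8, 75.6 and 69.5 CPM in proliferating and 94.3, 104 and 102 CPM in differentiating libraries, with 79.3 and 88.7 CPM in input (log2 0.54, SE 0.09, edgeR adjusted p = 0.0617). Zfp981 had 0.60 and Zfp985 had 0.52. The window of Zfp981 overlaps the gene Zfp993, and that of Zfp993 overlaps the gene Zfp981, so the counts of these genes are not independent. All 13 gene bodies of the cluster had a positive change, with a median of 0.52.

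Over gene bodies, Zfp genes were more often below input than above it. edgeR's quasi-likelihood test called 15 of 355 above input and 114 below, or 4.23% and 32.1%, against 8.43% and 21.3% (29.8% in all) over all 24848 genes. The median log2 was -0.22, against -0.14 over all genes. Clustered genes gave 11 above and 57 below of 173, and single genes 4 above and 57 below of 182. With TMM in place of gene body totals the split was 29 above and 62 below. Without the proliferating input the count was 0, and without the differentiating input 1 above and 33 below.

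Against input, clusters differed in direction. In the chromosome 17 cluster from Zfp160 to Zfp40, 7 of 21 gene bodies were above input and 0 below, with a median log2 of 0.28, and in the chromosome 13 cluster 3 of 19 were above and 0 below. In the chromosome 7 clusters from Zfp84 to Zfp146 and from Zfp180 to Zfp526, 0 were above and 11 of 15 and 10 of 14 below, with medians of -0.50 in each. The chromosome 15 cluster from Zfp623 to Zfp647 had 4 of 5 below. Against IgG, 0 gene bodies of these 5 clusters were called, and the median log2 was -0.10 in the chromosome 17 cluster and -0.27 in the chromosome 13 cluster. Over all genes 8.43% of gene bodies were above input and 21.3% below. The clusters were not compared with each other by a test. Genes with the Staf motif in the promoter had 21 of 47 gene bodies below input (44.7%), and all genes with the motif 179 of 407 (44.0%).

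Among gene bodies called above input whose 6 WT values lay clear of both inputs, the farthest were Zfp91, Zfp820, Zfp947, Zfp616, Zfp458 and Zfp457. Zfp91 had 20.3, 36.1 and 28.4 CPM in proliferating and 30.9, 32.2 and 32.6 CPM in differentiating libraries, against 18.6 and 19.8 CPM in input (log2 0.64, SE 0.14, edgeR adjusted p = 0.0065). All WT values lay above both inputs, but IgG stood at 24.9 and 38.6 CPM, within or above the WT range. Zfp947, of the chromosome 17 cluster, had 19.4, 19.0 and 21.8 CPM, then 22.6, 21.8 and 23.5 CPM, against 13.5 and 15.9 CPM in input and 19.0 and 24.9 CPM in IgG (log2 0.55, SE 0.09, edgeR adjusted p = 0.002). Its WT values were above input and overlapped IgG. Zfp820 had 0.56, Zfp616 0.46, Zfp458 0.45 and Zfp457 0.42. Zfp735 at 0.67 and Zfp982 at 0.62 were also called, with WT values that overlapped input.

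The gene bodies farthest below input were Zfp646, Zfp408, Zfp740, Zfp94, Zfp526 and Zfp276, at -0.94, -0.86, -0.86, -0.81, -0.79 and -0.77. Zfp94 had 10.3, 8.52 and 8.80 CPM in proliferating and 10.996, 11.8 and 10.95 CPM in differentiating libraries, against 17.1 and 18.8 CPM in input (SE 0.10, edgeR adjusted p = 0.000697). Its IgG values of 15.4 and 13.3 CPM were also above all 6 WT libraries. Zfp276 had 10.3, 12.8 and 9.98 CPM, then 14.5, 13.0 and 12.8 CPM, against 21.6 and 20.1 CPM in input and 21.4 and 14.4 CPM in IgG. WT values of Zfp276 were below both inputs and reached the lower IgG value. Among genes with a known role, Zfp568 was below input at -0.55, Zfp809 at -0.48, Zfp335 at -0.44 and Zfp106 at -0.40. Zfp335 was thus above input at its start site and below it over its body.

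**Figure D4:**
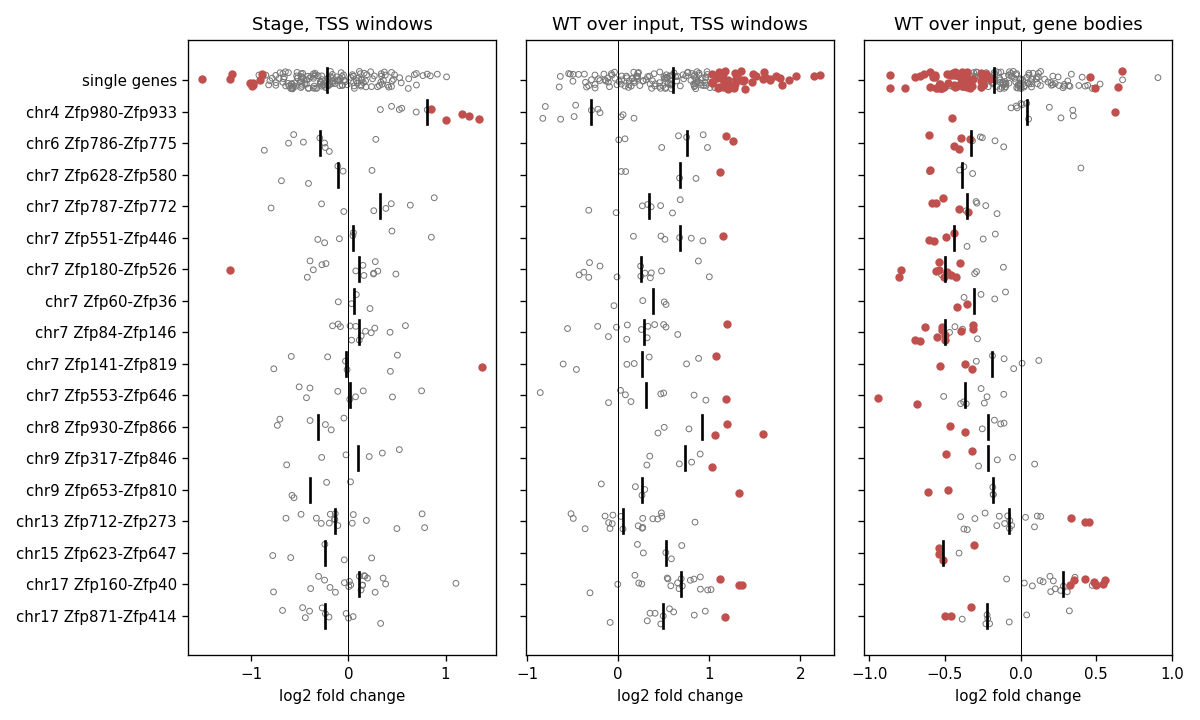
Log2 fold changes of Zfp genes by cluster, with single genes in the top row, for TSS windows between stages (left), TSS windows over input (middle) and gene bodies over input (right). Each point is a gene, red where edgeR's adjusted p was under 0.05, and black bars are medians. The chromosome 4 cluster stands at a median of 0.81 on the left and -0.29 in the middle, and the chromosome 17 cluster from Zfp160 to Zfp40 at 0.28 on the right.

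Against IgG, which had fewer counts, 9 of 271 tested Zfp windows were above and 0 below, or 3.32%, against 5.13% and 0.205% (5.34% in all) over all 13158 windows. The median log2 was 0.74 for Zfp windows and 0.67 for all. Without the proliferating IgG library the count was 0, and it was 18 without differentiating replicate 2 and 15 without differentiating replicate 3. With TMM scaling 0 were above and 1 below. None had a mean count of 30, and the 3 smallest p belonged to Zfp944, Zfp318 and Zfp143. Zfp944 had the smallest p, with 0 IgG counts and 103 WT counts, which is at least 3.11-fold higher over a floor of 3 counts across both IgG libraries. Its input held 1.77 and 1.34 CPM, within the WT range, and its promoter is 99.6% identical to that of Zfp942. Zfp318 had 1 IgG and 121 WT counts, a WT to IgG ratio of 10.95 in CPM (95% interval 1.93 to 436), and Zfp281 had 1 and 109, a ratio of 9.86 (1.73 to 393). Zfp148 had a ratio of 6.42 (1.75 to 53.6), Zfp362 of 5.29 (1.43 to 44.2), Zfp787 of 4.57 (1.23 to 38.2), Zfp143 of 4.57 (1.76 to 16.9) and Zfp335 of 3.62 (1.525 to 11.3). The intervals cover counting error only. The ninth called window was Zfp532. It, Zfp362 and Zfp787 were named after their values were seen.

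Over gene bodies edgeR's quasi-likelihood test called 0 Zfp genes above IgG and 2 below (5 above and 74 below at an unadjusted p under 0.05, and 0 above and 6 below by DESeq2), against 0.54% and 0.739% over all genes, with a median log2 of -0.19 against -0.01. Zfp808 had 38.5, 37.8 and 33.9 CPM in proliferating and 39.5, 45.3 and 46.2 CPM in differentiating cells of WT, with 37.8 and 44.6 CPM in input, against 57.8 and 64.2 CPM in IgG (log2 -0.60, SE 0.10, edgeR adjusted p = 0.0139). WT and input were at the same level and IgG above both. Zfp965, which shares its promoter sequence with other genes, had -1.91. The count was 0 without either IgG library, 4 without proliferating replicate 2 and 7 without differentiating replicate 3.

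The genes of the corepressor that KRAB zinc finger proteins use and of H3K9me3 were described from a list of 24. Of 23 tested windows 9 were above input and 0 below, against 11.6% and 0.881% over all windows. These were Rif1 (1.86), Cbx3 (1.62), which encodes HP1 gamma, Chd4 (1.48) of the NuRD complex, Suv39h2 (1.46), an H3K9 methyltransferase, Hdac2 (1.45), Tasor (1.42) of the HUSH complex, Resf1 (1.24), Smarcad1 (1.18) and Ehmt2 (1.12), which encodes G9a. Trim28 itself had 0.83 (edgeR adjusted p = 0.124) and Setdb1 had -0.08. Between stages 2 of 22 were lower in differentiating cells, Suv39h2 at -1.24 and Tasor at -0.97, and 0 were higher, against 4.42% lower and 2.04% higher over all windows. Of other zinc finger families, 11 of 38 Zbtb, 6 of 14 Klf and 0 of 23 Zscan and Zkscan windows were above input, against the same 11.6% over all windows.

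The Hbo1 null libraries held 37 and 129 counts over all Zfp windows, and 328 and 252 of the 355 windows were at 0. With so few counts no gene was tested. Summed Zfp windows stood at 1.29 times the input share (95% Poisson interval 0.907 to 1.775) in proliferating null cells and 0.915 times (0.764 to 1.09) in differentiating ones, against 1.64 to 1.77 and 1.06 to 1.28 in WT of the same stages. Over all genes the null ratios were 0.843 and 0.907. A single gene, Zfp521, gave 9 of the 37 counts and 13 of the 129. Without Zfp521, left out after the data were seen, the Zfp ratios were 0.976 and 0.825.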

How the data were processed

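H3K14ac ChIP-seq was read as counts for 27095 genes in 12 libraries. The authors deposited whole-number counts per TSS window and per gene body, and per the submitters' processing notes they used bcl2fastq, featureCounts and mm10. The aligner, all versions, strand setting and treatment of multiply aligned reads are not given in the sources used here. Groups came from the sample titles. Of the 27095 gene identifiers, 25204 matched the RefSeq gene table by which promoters and symbols were checked. The members, clusters, lists and tests were chosen with earlier results of these data known.

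Tests were edgeR 4.0.16 quasi-likelihood fits in R 4.3.3 over every gene whose mean count reached 10, with Benjamini-Hochberg adjustment and a threshold of 0.05 (prior count 0.125). Stages were compared in the 6 WT libraries with TMM scaling. WT was compared with input or IgG with gene body totals as library sizes and a stage term, and within each stage in a fit of 4 group means. Fits were tested on simulated data. Genes were named by rule (adjusted p under 0.05, mean count of at least 30, no overlap, else the 3 smallest p) and from a list of known roles. Exceptions are stated. Intervals (95%, Poisson or binomial) cover counting error only. Alternatives used DESeq2 1.42.0, other scalings, filters, a replicate block and each library left out. Tables were handled in Python 3.11.15 with pandas 2.3.3 and scipy 1.17.1. The null libraries, at 64071 and 320601 counts, entered no test.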

Additional observations from a re-analysis of the deposited data

Results flagged for a closer look

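In the Hbo1 null libraries, which entered no test, 3 window counts stood above the level in the control libraries. The Zfp521 window held 9 counts in the proliferating null library, or 140.5 CPM (95% interval 64.2 to 266.7), and 13 counts in the differentiating one, or 40.55 CPM (21.6 to 69.3). The highest input or IgG value of that window was 1.19 CPM, and its WT values were 1.17 to 3.81 CPM. The Zfp703 window held 4 counts in the differentiating null library, or 12.5 CPM (3.40 to 31.9), against at most 1.44 CPM in input and IgG. Each rests on 1 library per stage and a handful of counts, and reads without molecular identifiers are not independent molecules. The cause was not tested.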

How the results depend on the processing

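Between stages, the count of called Zfp windows was 16 (6 higher, 10 lower). It was 97 with gene body totals, 10 with DESeq2, 4 with a mean count of at least 30 (4 higher, 0 lower, of 8 tested; 1 of the 4, Zfp326, is not among the 16) and 4 to 21 with 1 library left out. Clustered genes gave 7, and 4 with neighbouring starts at most 250 kb apart. For gene bodies between stages the count of 0 became 1 with gene body totals and 5 with DESeq2, and stayed 0 with each library left out. Over input, 61 windows became 34 with TMM and 0 to 93 with 1 library left out, and 129 gene bodies became 0 to 167. Within proliferating cells 91 became 40 with TMM and 58 to 103. Over IgG, 9 windows became 1 with TMM, 5 with DESeq2 and 0 to 18, and 2 gene bodies became 6 with DESeq2 and 0 to 7. The stage change beyond that of input stayed between 0 and 1. Where a library left out leaves 1 control, that control is assumed to vary like the other libraries. For named genes, 557 values under an alternative kept their side of the threshold, 141 lost the call and 0 changed sign; apart from fewer libraries or genes in the fit, the cause was not tested.

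The replicate block gave 10 windows (3 higher, 7 lower) and 4 gene bodies between stages. Deviations of same-numbered libraries correlated at -0.12, 0.20 and -0.19, and those of libraries with unlike numbers at -0.30 to 0.27. These values show no pairing by number, and so few of them cannot settle whether there was one. Depth limits the IgG comparison, with a median of 3 counts per Zfp window, and the null libraries, with a median of 0.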
